A study of Rattus norvegicus with 12 samples.

Results

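Pyruvate dehydrogenase kinases and phosphatases were followed as 6 genes, Pdk1, Pdk2, Pdk3, Pdk4, Pdp1 and Pdp2, in rat hepatocytes exposed to 3 related chlorinated diphenyl ethers. The genes were taken by function, although with earlier results of these data known: a probe was included when the RefSeq transcript given for it in the scanner files belongs to 1 of these rat genes. They are 6 of 20359 genes or transcripts tested and are read by 9 of 45579 probes, 4 for Pdk1 and 1 for each of the others. All 9 probes were well above background on all 12 arrays, so no member was lost to the filter on dim probes. Values are log2 of the background-subtracted spot intensity minus the array's own 75th percentile over its probes, so that 0 is the 75th percentile of the array. Levels of different probes are not set against each other, because probes respond unequally.

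The pyruvate dehydrogenase complex sits in the mitochondrial matrix and turns pyruvate into acetyl-CoA, which commits carbon from carbohydrate to oxidation or to fatty acid synthesis. Kinases encoded by the Pdk genes phosphorylate the alpha subunit of its E1 enzyme and switch the complex off, and phosphatases whose catalytic subunits are encoded by Pdp1 and Pdp2 remove the phosphate and switch it on. In liver, Pdk2 is the constitutive kinase and Pdk4 is the isoform known for rising in fasting and diabetes and under PPARalpha agonists and glucocorticoids, and for being lowered by insulin. Pdk1 is a known target of the hypoxia factor HIF1, and Pdk3 is best known from testis, kidney and brain. Pdp1 is the calcium-stimulated phosphatase and Pdp2 the insulin-responsive one that predominates in liver and adipose tissue. All of this is regulation of transcripts and proteins, and the arrays measured transcripts only.

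The hepatocytes were primary cells of male Sprague Dawley rats, bought cryopreserved, cultured for 24 h and then exposed for a further 24 h. The 4 groups were the vehicle DMSO, 30 µM triclosan, 30 µM diclosan and 30 µM 1-chloro-3-(4-chlorophenoxy) benzene (CCPB), with 3 arrays each and with no genotype or strain difference between them. Triclosan is an antibacterial phenol; diclosan keeps its hydroxyl group and lacks 1 of its chlorine atoms, while CCPB has no hydroxyl group and carries a ring chlorine meta instead of para to the ether oxygen. Each array is labelled as an independent experiment, but nothing states whether the experiments used different rats or cell lots, so p-values measure the spread between these 3 experiments, part of which may be technical.

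Arrays came from 2 slides: the DMSO and triclosan arrays were on slide 1 with diclosan replicates 1 and 2 (8 arrays), and the CCPB arrays were on slide 2 with diclosan replicate 3 (4 arrays). CCPB therefore shared a slide with neither DMSO nor triclosan, and the fit with slide as a fixed block (below called the slide-blocked fit) rests, for those comparisons, on how diclosan replicate 3 differs from diclosan replicates 1 and 2. The share of probes well above background ran from 51.6% to 55.5% per array, with 0 saturated spots. All 8 hepatocyte markers, among them albumin and transferrin, were above background on all 12 arrays. In cultured cells a change in a transcript can come from fewer cells of a type or from less RNA per cell, which cannot be told apart here.

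Promoter windows of 3 kinases are shown, because Pdk4 and Pdk3 moved in opposite directions and Pdk2 did not pass the test in any comparison. The windows are from RefSeq on the assembly GRCr8 and run from 250 bases before to 50 bases after the annotated start, 5′ to 3′ on the gene's own strand. They exist for 4 of the 6 genes (Pdk1, Pdk2, Pdk3 and Pdk4). Capitals mark GGGCGG (the GC box), CCAAT (the CCAAT box) and ACGTG (the core of a hypoxia response element), each on either strand, so that a run in capitals may be a motif read in reverse. The window of Pdk4 is chr4:34568280-34568579 on the minus strand, that of Pdk3 is chrX:62547322-62547621 on the minus strand, and that of Pdk2 is chr10:80483863-80484162 on the minus strand.
Pdk4: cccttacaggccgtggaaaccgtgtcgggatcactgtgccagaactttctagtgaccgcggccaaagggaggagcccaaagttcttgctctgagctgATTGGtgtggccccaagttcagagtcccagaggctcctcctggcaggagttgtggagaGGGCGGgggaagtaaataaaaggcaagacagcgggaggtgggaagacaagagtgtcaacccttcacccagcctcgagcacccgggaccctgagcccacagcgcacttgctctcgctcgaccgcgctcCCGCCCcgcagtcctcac
Pdk3: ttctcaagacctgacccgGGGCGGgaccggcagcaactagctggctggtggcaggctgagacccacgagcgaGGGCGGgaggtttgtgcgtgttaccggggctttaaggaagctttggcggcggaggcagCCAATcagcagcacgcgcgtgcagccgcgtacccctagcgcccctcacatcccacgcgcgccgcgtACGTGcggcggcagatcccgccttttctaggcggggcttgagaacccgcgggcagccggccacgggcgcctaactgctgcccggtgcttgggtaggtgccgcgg
Pdk2: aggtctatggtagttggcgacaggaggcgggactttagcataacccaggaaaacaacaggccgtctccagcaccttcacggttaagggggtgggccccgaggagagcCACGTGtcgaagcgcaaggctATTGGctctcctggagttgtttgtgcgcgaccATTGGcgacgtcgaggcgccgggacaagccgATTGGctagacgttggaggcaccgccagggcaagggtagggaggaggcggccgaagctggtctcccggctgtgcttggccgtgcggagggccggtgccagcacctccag

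The Pdk4 window held 16 CpG dinucleotides and 61.3% GC. The other kinases had more of both, with 24 CpG and 64.0% GC for Pdk2, 30 CpG and 72.0% GC for Pdk1 and 34 CpG and 69.3% GC for Pdk3. Over all 33469 windows of the same length the median was 7 CpG, with quartiles of 3 and 19, and 51.7% GC. All 4 kinase windows thus lay above the median of all windows, and that of Pdk4 was the only one of them inside the quartile range for CpG.

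Motifs were counted on both strands, and each match is a description of letters, not of a bound site. GGGCGG is found in 33.1% of all windows and occurred 2 times in Pdk4, Pdk3 and Pdk1 and 0 times in Pdk2. CCAAT is found in 37.5% of windows and occurred 3 times in Pdk2, 1 time in Pdk3 and Pdk4 and 0 times in Pdk1. ACGTG is found in 19.3% of windows and occurred 2 times in Pdk1, 2 times in Pdk2, where the matches overlap on opposite strands, 1 time in Pdk3 and 0 times in Pdk4. The letters AGGTCANAGGTCA, a direct repeat read by PPARalpha with RXR (0.0538% of windows), AGGTCA (16.2%), which is contained in that repeat, TGTTTAC, a forkhead core (3.78%), and TATAAA (14.2%) had 0 matches in all 4 windows. ACGTG was thus present in the windows of Pdk1, Pdk2 and Pdk3 and not in that of Pdk4. Sites outside these windows or with other letters were not searched. A count of 0 thus does not show that a gene lacks such a site.

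Pdk4, the kinase induced in fasting, was the member with the largest change between CCPB and DMSO. It rose 2.16-fold with CCPB relative to DMSO, and it did not pass the test with triclosan or diclosan. On the 3 DMSO arrays it stood at -2.42, -2.71 and -2.72, and on the 3 CCPB arrays at -1.62, -1.34 and -1.55 (log2, relative to the array's 75th percentile; probe A_44_P231269). The 3 CCPB arrays were the 3 highest of the 12 and did not overlap with any other group.

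The mean level of Pdk4 was -2.61 ± 0.17 in DMSO and -1.50 ± 0.14 in CCPB (SD, n = 3 arrays each). The difference of 1.11 log2 units had a 95% interval of 0.90 to 1.33 and a limma adjusted p of 7.01e-05 (Benjamini-Hochberg over 20359 genes or transcripts). Ordered from the largest increase with CCPB, Pdk4 ranked 86 of 20359. In the slide-blocked fit the difference was 1.22 (0.82 to 1.62), with a limma adjusted p of 0.0102, and with slide as a random block it was 1.15, with a limma adjusted p of 0.000809.

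Pdk4 is a dim probe, with a spot intensity between 71.8 and 199.5 across the arrays. With normexp background correction, which adds 50 intensity units to each spot, the difference was 0.71, or 1.64-fold, with a limma adjusted p of 1.18e-05. With replicate number and slide together as blocks the difference of 1.14 did not pass the threshold (limma adjusted p = 0.0583). Leaving out any of the 6 DMSO or CCPB arrays in turn gave differences between 1.03 and 1.21, each of which passed.

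With triclosan, the hydroxylated compound with the additional chlorine, the Pdk4 values were -2.29, -2.32 and -2.32. All 3 lay above all 3 DMSO values. The mean was -2.31 ± 0.019 (SD, n = 3), which is 0.30 above DMSO (95% interval 0.09 to 0.52), or 1.23-fold, with a limma adjusted p of 0.274. These groups shared slide 1, so slide does not enter this difference.

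With diclosan the Pdk4 values were -2.77, -2.56 and -2.77, a mean of -2.70 ± 0.12 (SD, n = 3). They overlapped with the DMSO values. The difference from DMSO was -0.09 with an interval of -0.30 to 0.13 and a limma adjusted p of 0.782, so a rise of the size seen with CCPB lies outside this interval.

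Set against each other at the same dose and time, the compounds fell in the order CCPB, triclosan, diclosan for the level of Pdk4, with DMSO between triclosan and diclosan. Diclosan, which shares the number of chlorine atoms with CCPB but carries the hydroxyl group and has a ring chlorine at another position, was 1.20 below CCPB (interval -1.41 to -0.98 for diclosan minus CCPB; limma adjusted p = 0.000105). Slide 2 alone, added after the data were seen, holds 1 diclosan array at -2.77 against the 3 CCPB arrays and gave -1.27 (limma adjusted p = 0.104). The slide-blocked fit gave the same difference a limma adjusted p of 0.00318.

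Triclosan was 0.81 below CCPB in Pdk4 (interval -1.02 to -0.59 for triclosan minus CCPB; limma adjusted p = 0.000827, and 0.0464 with slide as a fixed block). Between triclosan and diclosan, which differ by 1 chlorine atom, the 3 triclosan values lay above the 3 diclosan values. That difference of 0.39 (interval 0.18 to 0.61) did not pass after adjustment (limma adjusted p = 0.484), and 0% of all genes or transcripts passed in that comparison, where 1391 had an unadjusted limma p under 0.05.

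**Figure D1:**
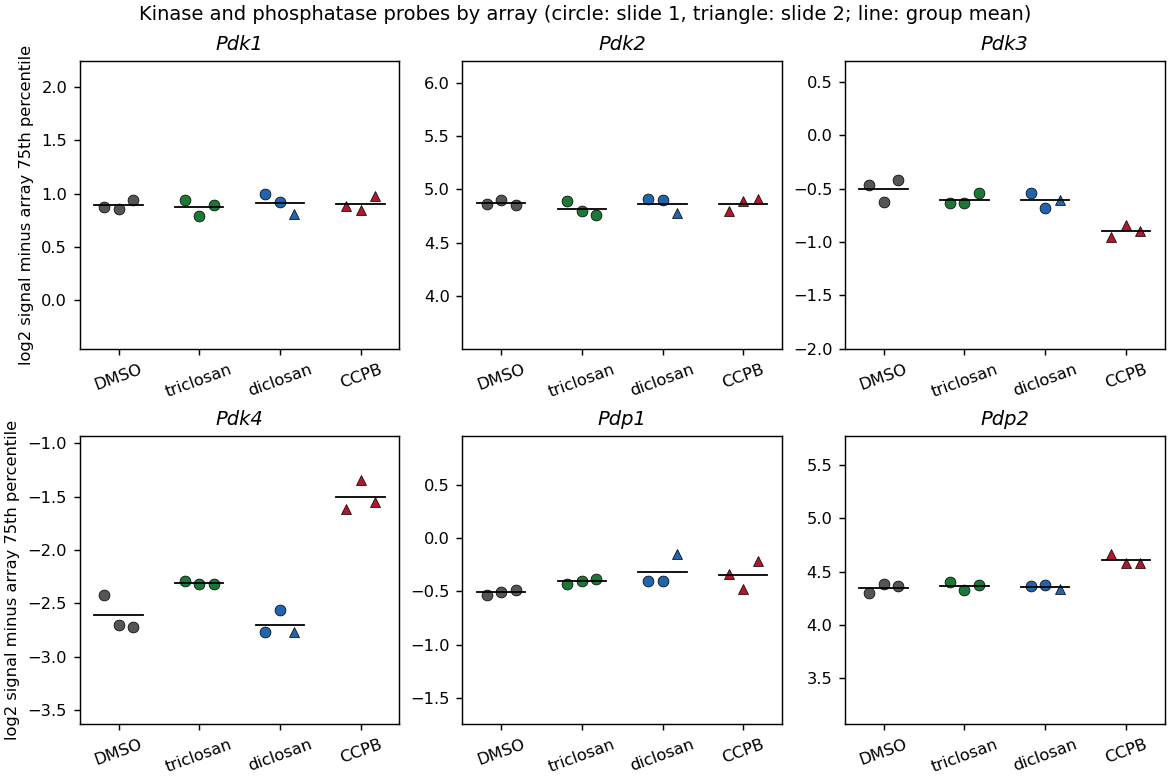
Level of each of the 6 genes on each of the 12 arrays, on the log2 scale relative to the array's 75th percentile, with points for arrays, bars for the group mean and marker shapes for the slide. In the Pdk4 panel the 3 CCPB arrays, from -1.62 to -1.34, lie above every other array; panels have separate vertical offsets, and levels are not to be read across genes.

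Pdk3 was the kinase that fell. With CCPB it was 1.31-fold lower than in DMSO, and the groups did not overlap. It stood at -0.46, -0.63 and -0.42 on the DMSO arrays and at -0.96, -0.84 and -0.90 on the CCPB arrays. The 3 CCPB values were the lowest 3 of the 12.

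The Pdk3 mean fell from -0.50 ± 0.11 in DMSO to -0.90 ± 0.059 in CCPB (SD, n = 3 each), a difference of -0.39 (95% interval -0.53 to -0.26; limma adjusted p = 0.00168). The slide-blocked difference was as large, at -0.40, but did not pass (limma adjusted p = 0.101). Triclosan, at -0.63, -0.64 and -0.54, overlapped with DMSO, as did diclosan at -0.54, -0.68 and -0.60. The differences from DMSO were -0.10 for both (limma adjusted p = 0.575 for triclosan and 0.581 for diclosan).

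Pdk3 was also higher in triclosan than in CCPB, by 0.29 (interval 0.16 to 0.43; limma adjusted p = 0.0108), and higher in diclosan than in CCPB, by 0.29 (0.15 to 0.43; limma adjusted p = 0.0121). Both of these calls were lost with slide as a fixed block, at limma adjusted p values of 0.254 and 0.107. The second was also lost without diclosan replicate 1 (0.26; limma adjusted p = 0.0515). Slide 1 alone holds no CCPB array, and on slide 2 the diclosan array read -0.60 against -0.96 to -0.84 for CCPB.

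Pdk2, the constitutive liver kinase, did not pass in any of the 6 comparisons. Its DMSO values were 4.86, 4.90 and 4.85 and its CCPB values 4.80, 4.89 and 4.91, and all groups overlapped. The CCPB difference was -0.01 with an interval of -0.12 to 0.11 (limma adjusted p = 0.947). Slide-blocked, it was 0.12 (-0.05 to 0.30). For triclosan, at 4.89, 4.80 and 4.76, the difference was -0.05 (-0.16 to 0.06), and for diclosan, at 4.91, 4.90 and 4.78, it was -0.01 (-0.12 to 0.10). These intervals exclude a change as large as that of Pdk4 with CCPB.

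Pdk1, the HIF1-responsive kinase, has 4 probes, and none of them passed in any comparison when each probe was fitted as its own feature. The brightest, A_44_P139718, read 0.87, 0.85 and 0.94 in DMSO and 0.88, 0.84 and 0.98 in CCPB, with the groups overlapping. Its CCPB difference was 0.01 (interval -0.12 to 0.15; limma adjusted p = 0.888), and 0.16 (-0.05 to 0.38) with slide as a fixed block. The triclosan values were 0.94, 0.79 and 0.89 and the diclosan values 1.00, 0.92 and 0.81, with differences from DMSO of -0.02 and 0.02.

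The 3 dimmer Pdk1 probes gave CCPB differences of -0.12 (A_44_P622466), 0.08 (A_43_P15169) and -0.07 (A_43_P10378), with limma adjusted p values of 0.153, 0.295 and 0.455. The 4 Pdk1 probes thus had no common sign, and each interval included 0.

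Pdp2, the insulin-responsive phosphatase, was higher with CCPB by 1.20-fold. It read 4.30, 4.38 and 4.37 on the DMSO arrays and 4.67, 4.58 and 4.58 on the CCPB arrays. The 3 CCPB arrays were the highest 3 of the 12. Means were 4.35 ± 0.047 and 4.61 ± 0.053 (SD, n = 3 each), and the difference of 0.26 (95% interval 0.17 to 0.35) had a limma adjusted p of 0.00133.

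The slide-blocked difference of Pdp2 was 0.29, with a limma adjusted p of 0.0569, and with each array scaled to its median it was 0.23, with a limma adjusted p of 0.0628. Triclosan, at 4.40, 4.33 and 4.37, and diclosan, at 4.37, 4.37 and 4.34, overlapped with DMSO, with differences of 0.02 (-0.07 to 0.11) and 0.01 (-0.08 to 0.10). Diclosan was 0.25 below CCPB in Pdp2 (limma adjusted p = 0.00277, and 0.0254 with slide as a fixed block), and triclosan was 0.24 below it (limma adjusted p = 0.0034, and 0.102 with the block). The calls of both were lost with arrays scaled to their median, at limma adjusted p values of 0.0983 and 0.0749.

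Pdp1, the calcium-stimulated phosphatase, passed in no comparison. Its DMSO values were close together, at -0.53, -0.51 and -0.485. Every exposed array read higher than these, with -0.43, -0.41 and -0.38 in triclosan, -0.41, -0.41 and -0.15 in diclosan and -0.34, -0.478 and -0.21 in CCPB. The differences were 0.10 for triclosan (interval -0.07 to 0.28; limma adjusted p = 0.666), 0.19 for diclosan (0.01 to 0.36; limma adjusted p = 0.438) and 0.17 for CCPB (-0.01 to 0.34; limma adjusted p = 0.140). Diclosan replicate 3, on slide 2, stood 0.26 above the mean of diclosan replicates 1 and 2, where the median absolute gap over all genes was 0.11. In the slide-blocked fit the CCPB difference of Pdp1 was -0.09 and the diclosan difference 0.10.

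Over the 6 genes, 3 passed between CCPB and DMSO, 2 higher (Pdk4 and Pdp2) and 1 lower (Pdk3), where 28.3% of all genes or transcripts passed in either direction. In the higher direction 14.3% of all passed and in the lower direction 14%, and nothing particular to the members is read from their count. In the slide-blocked fit 1 of 6 passed (Pdk4) against 3.46% of all. The groups did not overlap for 4 of 6 members (Pdk3, Pdk4, Pdp1 and Pdp2), against 50.1% of all. The median difference of the members was 0.09, beside 0.01 for all genes tested.

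Between triclosan and DMSO 0 of 6 members passed by limma after adjustment, where 0.0639% of all genes or transcripts passed, and 1 (Pdk4) had an unadjusted p under 0.05, where 11.6% of all did. Between diclosan and DMSO 0 of 6 passed, where 0.00982% of all did, and 1 (Pdp1) had an unadjusted p under 0.05, where 10.6% of all did. Groups did not overlap for 2 members with triclosan (Pdk4 and Pdp1; 19% of all) and for 1 with diclosan (Pdp1; 16.1% of all). Pdk4, Pdk3 and Pdp2 passed in both comparisons of CCPB with another compound, where 20.5% (triclosan) and 14.4% (diclosan) of all passed, and these comparisons share the CCPB arrays with each other and with the comparison with DMSO. In the slide-blocked fit Pdk4 alone passed between triclosan and CCPB (1.41% of all), and Pdk4 and Pdp2 passed between diclosan and CCPB (4.95% of all).

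**Figure D2:**
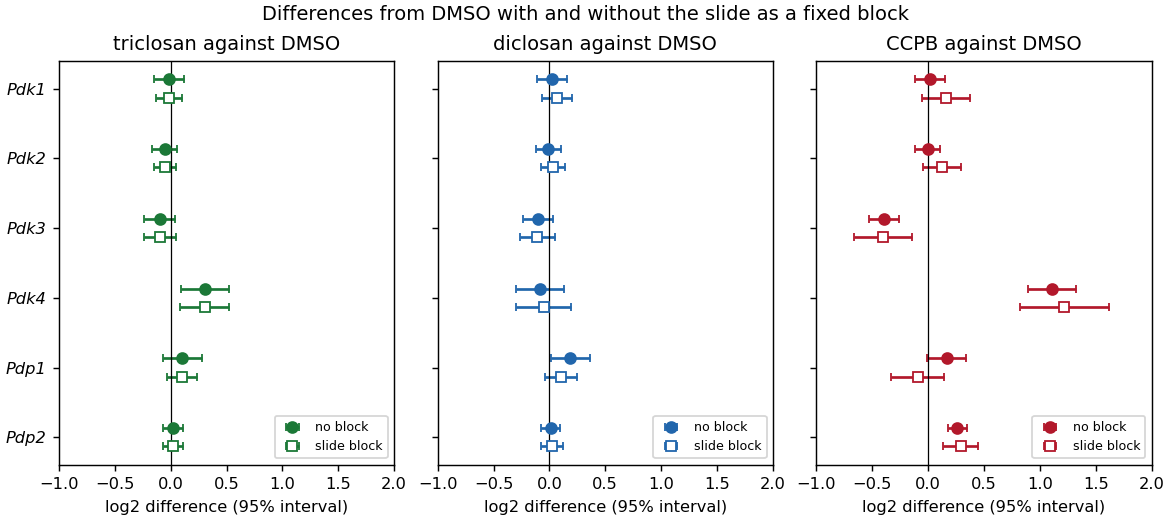
Difference from DMSO on the log2 scale for each of the 6 genes and each compound, with 95% intervals, from the fit over 12 arrays and with slide as a fixed block. The Pdk4 interval with CCPB, 0.90 to 1.33, lies clear of 0 and above those of the other 5 genes, and the Pdp1 difference with CCPB changes sign with the block.

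Whether Pdk4 changed differently from the other members was tested on each array's Pdk4 value minus the other gene's value. This cancels a constant offset between the probes on the log2 scale. It does not cancel an unequal response to a change or to background, and Pdk4 is the dim probe. Over the 4 groups the F statistic of this difference had an exact permutation adjusted p of 0.0011 for each of the other 5 genes. It used 369600 arrangements of 12 arrays and was adjusted over 5 tests. All 5 tests share the Pdk4 values, whose rise with CCPB was already known, so they are not separate results. No share over other genes was computed for this statistic, and nothing particular to these 5 genes is read from it. The arrangements also exchanged arrays between slides, so differences between slides were not separated from those between groups. On the 8 arrays of slide 1, which hold no CCPB array, the exact permutation adjusted p values (560 arrangements) were 0.13 for Pdk1, Pdk2, Pdk3 and Pdp2 and 0.143 for Pdp1. Slide 1 alone thus gave no call for any of the 5 genes.

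For CCPB against DMSO, Pdk4 gained 1.098 log2 units on Pdk1, 1.12 on Pdk2, 1.505 on Pdk3, 0.95 on Pdp1 and 0.85 on Pdp2. The ratio of Pdk4 to Pdk3 thus rose 2.84-fold and its ratio to Pdk2 2.17-fold. The groups did not overlap for any of the 5, and the two-sided exact permutation p was 0.1 for each, the smallest that 3 against 3 arrays allow. The 5 share the Pdk4 values. In their own values 50.1% of all genes or transcripts did not overlap between CCPB and DMSO. No share was computed for differences between genes. With normexp the 5 gains were smaller, at 0.63, 0.70, 1.05, 0.56 and 0.54 in the same order.

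With triclosan the gains of Pdk4 were 0.32 on Pdk1, 0.36 on Pdk2, 0.40 on Pdk3, 0.20 on Pdp1 and 0.28 on Pdp2. The groups overlapped only against Pdp1 (exact two-sided permutation p = 0.3), and the exact permutation p was 0.1 for the other 4. In their own values 19% of all genes or transcripts did not overlap between triclosan and DMSO. With diclosan they ran from -0.28 against Pdp1 to 0.02 against Pdk3, all 5 overlapping, with exact permutation p values from 0.3 to 1.

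**Figure D3:**
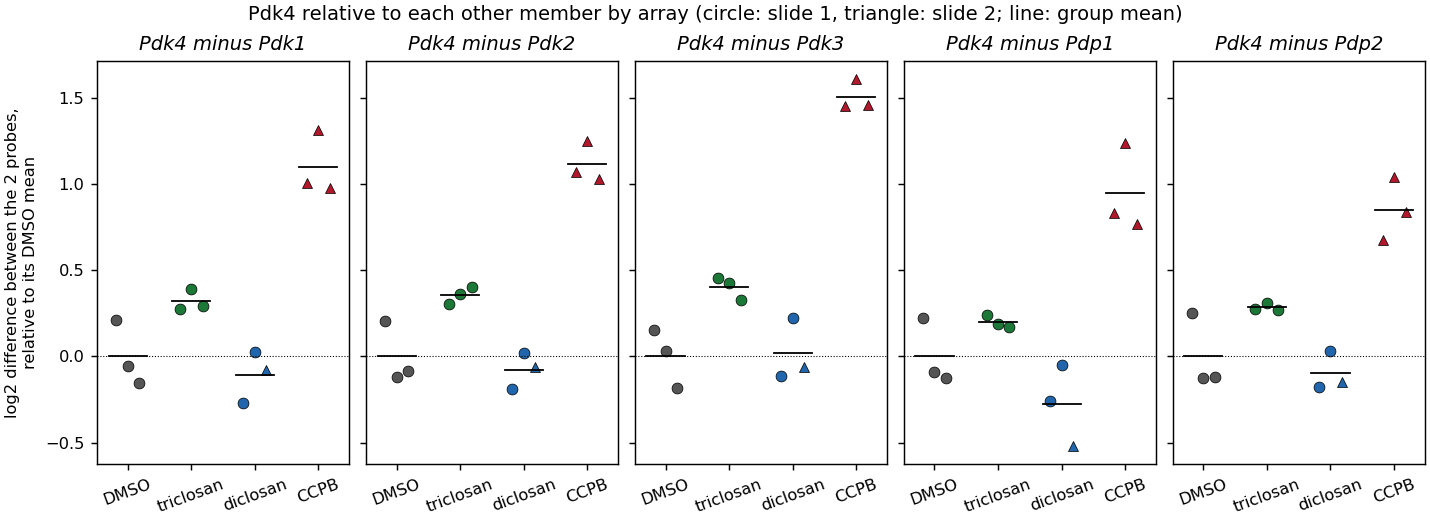
Pdk4 minus each other gene on each array, on the log2 scale relative to the mean of the 3 DMSO arrays, by group. The 3 CCPB arrays lie above the DMSO arrays in all 5 panels, with means from 0.85 (against Pdp2) to 1.505 (against Pdk3), and the diclosan arrays overlap with DMSO in all 5.

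The complex that these enzymes act on was read by 4 of its 6 listed subunit genes. With CCPB 1 rose, 0 fell and 3 did not pass. For this list and those that follow, the share of all genes or transcripts passing in this comparison was 28.3% (14.3% higher and 14% lower), and 3.46% in the slide-blocked fit. The list's median difference was 0.09, and -0.03 in the slide-blocked fit, beside 0.01 for all genes. Pdhb, the beta subunit of E1, rose by 0.20 (limma adjusted p = 0.0226), from 3.69, 3.67 and 3.69 in DMSO to 3.85, 3.91 and 3.88 in CCPB, without overlap. Pdha1, the E1 alpha subunit that the kinases phosphorylate, differed by 0.14 (limma adjusted p = 0.139), Dlat, the acetyltransferase E2, by -0.12 (0.0592), and Dld, the lipoamide dehydrogenase E3, by 0.05 (0.397). Pdha2, the testis form, was removed as dim, and Pdhx had no named probe. In the slide-blocked fit 0 of the 4 passed in limma after adjustment (Pdhb, limma adjusted p = 0.322).

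Of the phosphatase's regulatory subunit and the related branched-chain enzymes, all 3 were measured. Pdpr, the subunit that restrains Pdp1, rose 0.55 with CCPB (limma adjusted p = 0.00846), from -3.68, -3.61 and -3.41 to -3.06, -2.99 and -3.01. Ppm1k, the phosphatase of the branched-chain ketoacid dehydrogenase, rose by 0.19 (0.0338), and its kinase Bckdk differed by -0.04 (0.563). The median was 0.19 (slide-blocked 0.10), and 0 of the 3 passed with slide as a fixed block (limma adjusted p = 0.380 for Pdpr). Both measured genes of lipoate attachment, of 3 listed, rose with CCPB (median 0.26, slide-blocked 0.10): Lipt1, the lipoyl transferase, by 0.30 (0.0065), and Lias, the lipoyl synthase, by 0.21 (0.0224). Neither passed with the block (limma adjusted p = 0.381 and 0.982), and Lipt2 was removed as dim.

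Genes that bring pyruvate in or send it elsewhere were all measured (14 of 14), and with CCPB 3 rose, 1 fell and 10 did not pass, close to the 28.3% of all genes that passed. The median was 0.04 (slide-blocked 0.03). Mpc2, a subunit of the mitochondrial pyruvate carrier, rose by 0.24 (limma adjusted p = 0.00693), and its values on slide 2 were 5.98 in diclosan and 5.977 to 6.003 in CCPB, against 5.74 to 5.84 on slide 1. Pck1, the cytosolic enzyme that starts gluconeogenesis from oxaloacetate, rose by 0.74 (0.0178). Pck2, its mitochondrial counterpart, fell by 0.22 (0.0184), and Pklr, the liver pyruvate kinase, differed by -0.13 (0.134). Slc16a1, a monocarboxylate carrier named after its value was seen, was the third that rose, by 0.15 (0.0331). In the slide-blocked fit 0 of the 14 passed, and Mpc2 differed by 0.06.

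Of 19 regulators known for Pdk transcription, 18 were measured, and with CCPB 7 rose, 0 fell and 11 did not pass, where 14.3% of all genes were higher and 14% lower. The median was 0.11 (slide-blocked 0.16). Nr0b2, the repressor SHP, rose by 2.25 (limma adjusted p = 1.2e-05), Nr1i3, the receptor CAR, by 0.81 (0.0002), Nr1i2, the receptor PXR, by 0.27 (0.0027), and Hif1a by 0.22 (0.00514). Slide-blocked, Nr0b2, Nr1i3 and Nr1i2 passed, at limma adjusted p values of 0.00364, 0.0491 and 0.0239. Ppara itself, named outside the rule for listed genes, differed by -0.01 (0.908), and Sirt1 had no named probe. Nr0b2 was the 1 gene in these lists that passed with triclosan (2.09; limma adjusted p = 0.000309) and with diclosan (1.798; 0.00131), so it rose with all 3 compounds. Pdk4 passed with CCPB alone, but its triclosan difference of 0.30 had an interval of 0.09 to 0.52. Whether any of these regulators acts on Pdk4 here was not tested.

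Targets of PPARalpha and of fasting, a list that in other work moves with Pdk4, were all measured (16 of 16). With CCPB 6 rose, 1 fell and 9 did not pass, where 14.3% of all genes were higher and 14% lower. The median was 0.07, and 0.22 in the slide-blocked fit. Cpt1a, the carnitine palmitoyltransferase of the outer mitochondrial membrane, rose by 0.44 (limma adjusted p = 0.000129), from 1.37, 1.29 and 1.31 in DMSO to 1.69, 1.81 and 1.79 in CCPB. Cpt2, its partner of the inner membrane, rose by 0.37 (0.000129), and Cyp4a1, a fatty acid omega-hydroxylase, by 0.32 (0.000465). In none of these 3, which were named for their small p, did the CCPB arrays overlap with DMSO. Of all genes or transcripts, 50.1% did not overlap in that comparison. Slide-blocked, 4 of 16 were higher (3.46% of all genes passed in either direction), namely Cpt1a (limma adjusted p = 0.0311), Cpt2 (0.0112), Cyp4a1 (0.0469) and Slc25a20, the carnitine carrier (0.0375), which did not pass without the block. Slc25a20 read 3.02, 2.99 and 2.945 in DMSO and 3.09, 3.05 and 3.02 in CCPB. Its blocked call rests on diclosan replicate 3, which read 2.805 on slide 2 against 3.015 and 3.03 for diclosan replicates 1 and 2. The gene that fell was Fgf21 (-0.24; limma adjusted p = 0.00911). Acadm, a medium-chain acyl-CoA dehydrogenase, was among the 9 that did not pass, with a difference of -0.03. Fgf21, Acadm and Slc25a20 were named after their values were seen.

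All 12 targets of FoxO factors and glucocorticoids were measured, and with CCPB 5 rose, 3 fell and 4 did not pass, where 14.3% of all genes were higher and 14% lower. The median was 0.08 (slide-blocked 0.10). Tsc22d3, the glucocorticoid-induced leucine zipper, fell by 0.59 (limma adjusted p = 0.000298), and Sgk1, a glucocorticoid-induced kinase, fell by 0.35 (0.0018). Both also passed with slide as a fixed block (limma adjusted p = 0.0223 and 0.0187), the 2 calls of the list that did. Igfbp1, a FoxO target lowered by insulin, rose by 0.27 (0.00355), and the metallothionein Mt2A by 0.16 (0.00909). Pck1, counted here too, was among those that rose. Members of this list thus moved in both directions, and their relation to Pdk4 was not tested.

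Of 16 HIF1 targets 13 were measured, and with CCPB 1 rose, 2 fell and 10 did not pass, near the 28.3% of all genes that passed. The median was -0.07, and -0.01 in the slide-blocked fit. Bnip3, a mitophagy receptor, rose by 0.29 (limma adjusted p = 0.00226), while Ankrd37 fell by 0.35 (0.0116) and P4ha1, a collagen prolyl hydroxylase, fell by 0.13 (0.0247). Car9, a carbonic anhydrase, differed by 0.28 (0.0591). None passed with slide as a fixed block in limma after adjustment. Pdk1, the kinase of this pathway, did not pass either, as given above. Apart from Nr0b2, 0 members of the 8 lists passed after adjustment with triclosan or with diclosan in limma, where unadjusted p values were under 0.05 for 2359 and 2152 of all 20359 genes or transcripts.

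**Figure D4:**
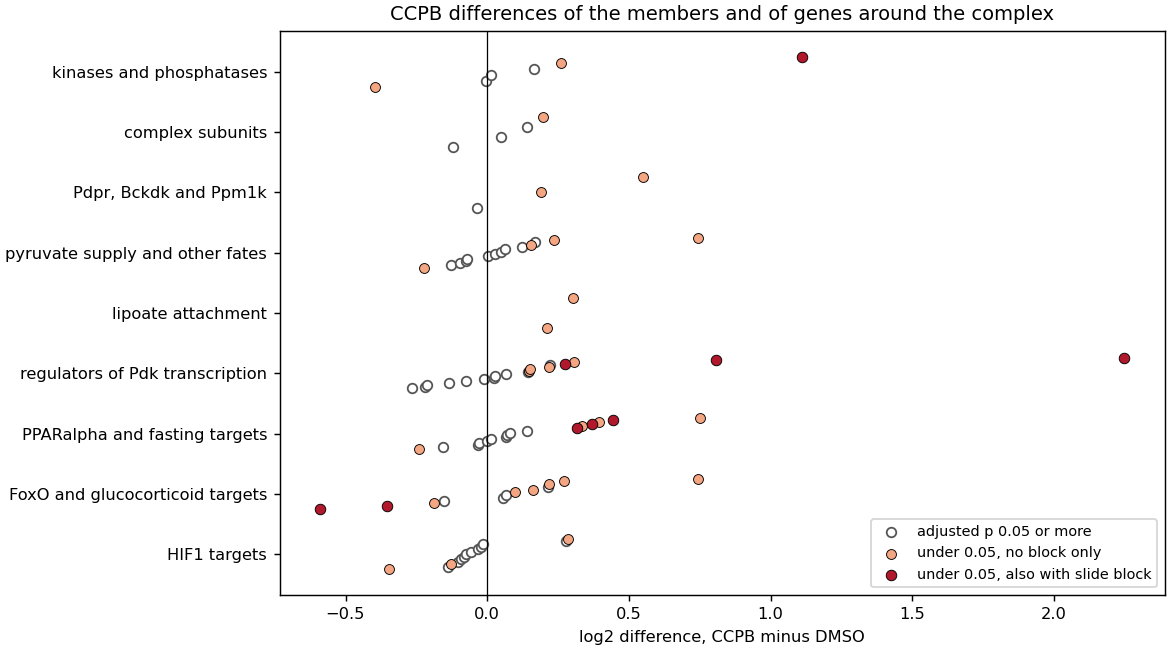
Difference between CCPB and DMSO on the log2 scale for the 6 members and the measured genes of each of the 8 lists, with colour for genes that passed and for those that also passed with slide as a fixed block. Nr0b2 (2.25) lies farthest to the right, Cpt1a (0.44) and Cpt2 (0.37) lie to the right of 0, and Tsc22d3 (-0.59) lies farthest to the left; some genes sit in more than 1 list.

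The named genes whose values ran most like those of Pdk4 over the 12 arrays were found by Pearson r among 10684 genes with a symbol. They were Wfdc3 (r = 0.980), Cpt2 (0.973), Cpt1a (0.971), Nfatc4 (0.965) and Eci1 (0.957). Cpt1a and Cpt2 commit and admit long-chain fatty acids to mitochondrial oxidation, Eci1 is the enoyl-CoA isomerase needed for unsaturated chains, Nfatc4 is a transcription factor and Wfdc3 a whey acidic protein domain gene. All points share the scaling of their array, and the CCPB arrays stand apart from the other 9, so these values describe likeness mostly between CCPB and the rest. Over the 8 arrays of slide 1, without CCPB, r was 0.820 for Wfdc3, 0.713 for Cpt2, 0.791 for Cpt1a, 0.815 for Nfatc4 and 0.745 for Eci1. These 8 arrays are among the 12 on which the 5 genes were picked, so the values describe the picked genes and are no separate evidence of likeness.

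Wfdc3 ran from -0.97 to -0.89 in DMSO, from -0.85 to -0.68 in triclosan, from -0.95 to -0.87 in diclosan and from -0.38 to -0.28 in CCPB. Like Pdk4 it was highest in CCPB and next in triclosan, with DMSO and diclosan overlapping. Its CCPB difference was 0.60 (limma adjusted p = 5.31e-05, and 0.00836 with slide as a fixed block). Nfatc4 differed by 0.26 (0.00249, and 0.114 with the block) and Eci1 by 0.18 (0.00238, and 0.0339 with the block). With triclosan none of the 5 passed, with differences between 0.04 and 0.16.

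**Figure D5:**
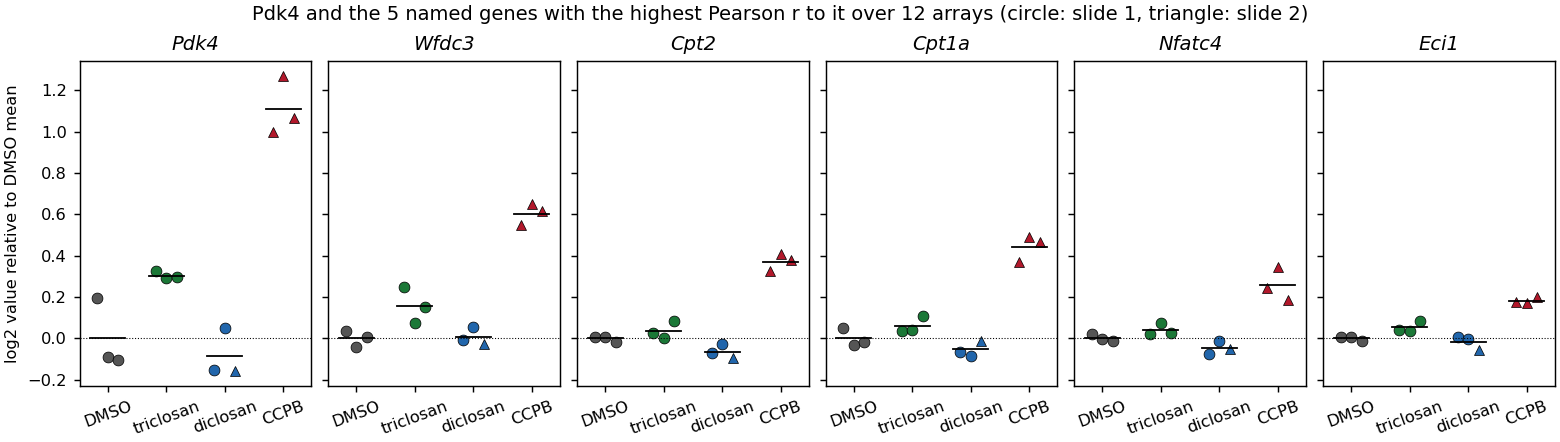
Pdk4 and the 5 genes most like it over the 12 arrays, each on the log2 scale relative to its own DMSO mean. All 6 genes are highest on the 3 CCPB arrays, with a mean rise of 1.11 for Pdk4 and between 0.18 and 0.60 for the other 5.

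Of the markers of cells other than hepatocytes, some were above background and some moved with CCPB beside the changes above. For all marker counts given here and below, 14.3% of all genes or transcripts were higher with CCPB and 14% lower. Nothing particular to a cell type is read from these counts. Vwf (3.21 in CCPB), Epcam (1.28 in DMSO and 1.61 in CCPB) and Col1a2 (0.72 and 0.56) lay above the array's 75th percentile, and the means of the other measured ones lay below it in both groups. The summed linear level of the hepatocyte markers (relative to the 75th percentile) was 2200 to 2290 in DMSO and 2250 to 2310 in CCPB, with 2 of 8 higher (Apoa1 and Cyp3a23-3a1). Of the cholangiocyte list 3 of 5 were measured and 2 (Epcam, 0.33, and Sox9, 0.28) were higher with CCPB, the sum rising from a range of 2.79 to 2.98 to a range of 3.53 to 3.60, while the defining Krt19 and Spp1 were above background on 0 arrays. Of the endothelial list 3 of 6 were measured and 1 (Vwf, 0.21) was higher, with sums of 8.05 to 8.54 and 9.40 to 9.72 and with Pecam1 and Lyve1 above background on 0 arrays.

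For stellate cells and fibroblasts 5 of 7 markers were measured and 1 (Acta2, 0.42) was higher with CCPB, with sums of 1.86 to 2.53 in DMSO and 1.93 to 2.03 in CCPB and with Lrat above background on 0 arrays. For macrophages 4 of 7 were measured and 0 passed in limma after adjustment, with sums of 0.745 to 1.02 and 0.962 to 1.07 and with Marco above background on 0 arrays. Slide-blocked, none of these non-hepatocyte calls passed, where 3.46% of all genes or transcripts passed in either direction. The part of these cells in the changes of Pdk4, Pdk3 and Pdp2 was not tested.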

How the data were processed

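Transcripts were measured on 12 one-colour arrays, grouped by the sample labels. Spot intensity in the scanner files was made with Agilent Feature Extraction 10.7.1.1 per the file headers, and is linear, background-subtracted and unscaled between arrays. A value table deposited by the authors gives a linear signal scaled to a 75th percentile near 1 on each array (0.9995 to 1; medians 0.048 to 0.055), not centred per gene, and was used as an alternative. The genome build behind the probes' design was not used.

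Between 1 and 8 non-uniform spots per array were dropped, repeat spots were averaged as log2 values, and the array's 75th percentile was subtracted. Probes detected above background in all 3 replicates of some group were kept (24254), named by matching transcript accessions to RefSeq (21218 probes named, 24361 not), and the brightest kept probe stood for a gene. All 12 arrays were fitted with limma 3.58.1 (R 4.3.3, with version 1.17.8 of data.table), with 6 two-sided contrasts, Benjamini-Hochberg adjustment over 20359 genes or transcripts and 95% intervals. The number of arrays limits precision: the median half-width of an interval was 0.145. Scaling to a percentile assumes that bright transcripts mostly do not change, and background subtraction makes dim probes such as that of Pdk4 sensitive to it.

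The members and all lists were chosen with earlier results of these data known. Named genes were all members, all genes of the subunit, regulatory-subunit and lipoate lists, up to 4 with the smallest p from each other list, and the 5 most like Pdk4 by values and by deviations from group means. Alternatives covered scaling, background correction, filter, probe summary, slide, replicate number, samples and adjustment; normexp used median spot and background signals. The fit was checked on simulated data with independent normal noise and no slide effect, so that check does not bear on slide. No promoter window was used for Pdp1 and Pdp2. Values of some listed genes are not reported here.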

Additional observations from a re-analysis of the deposited data

How the results depend on the processing

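Of 118 counts of members passing, 108 stayed within 1.5 times the main count. The main count was 0 for triclosan against DMSO, diclosan against DMSO and triclosan against diclosan, where it could only rise. A fall from 3 to 2 was taken as staying, and some settings left the values of most members unchanged. The 108 is therefore no measure of how firm the calls with CCPB are. With unadjusted p the count was 1 in place of 0 for triclosan against DMSO, 1 for diclosan against DMSO and 1 for triclosan against diclosan. With slide as a fixed block it was 1 in place of 3 for CCPB against DMSO and 1 for triclosan against CCPB. With the replicate block and slide together it was 0, 0 and 1 for CCPB against DMSO, triclosan against CCPB and diclosan against CCPB. For diclosan against CCPB it was 1 with arrays scaled to their median and 0 on slide 2 alone, the latter added after seeing the data and holding 1 diclosan array. Arrays with the same replicate number showed little common deviation (1 of 18 same-number correlations of deviations was over 0.1, range -0.165 to 0.117). This does not settle whether they came from the same experiment. The replicate block without slide kept 3 members for CCPB against DMSO, with Pdk4 at 1.11 and a limma adjusted p of 0.000431. Of the differences of members that passed, 151 kept the call, 23 lost it and 0 changed sign. Of those that did not pass, 3 did with unadjusted p and 531 still did not, 64 of which changed sign (among them Pdp1 between CCPB and DMSO, -0.09 with slide as a fixed block). Of the Pdk4 differences from other genes 122 moved by less than 1 SD and 8 by more, all with normexp. The genes or transcripts passing between CCPB and DMSO numbered 5757, but 704 with slide as a fixed block, 1830 with slide as a random block, 300 with replicate and slide blocks, 3316 scaled to the median, 2805 of 38986 without the filter and 3671 to 4000 without 1 DMSO or CCPB array. The cause of these changes was not tested. Pdk4, Pdpr, Pck1, Lipt1 and Car9 are among the dim probes, as is Nr0b2 in DMSO (-2.20, -1.76 and -2.00). Signal over background limits the fold of such probes.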

Other observations

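After each group's mean was subtracted, the genes whose deviations ran most like those of Pdk4 over the 12 arrays were Pde2a (Pearson r = 0.918), Meiob (0.895), Qsox1 (0.894), Cspp1 (0.888) and Med22 (0.879), among 10684 genes compared. All points share the scaling of their array, and r of the values themselves over the 8 arrays of slide 1 was 0.142, 0.563, 0.0503, 0.405 and -0.06 in this order. These 5 were picked as the highest r among 10684 genes over 12 arrays, and such picking by itself gives high values. Whether any of them varies with Pdk4 was not tested. None of them was among the 5 most like Pdk4 by value. Pde2a, a cyclic nucleotide phosphodiesterase, was lower with CCPB than with DMSO by limma (log2 difference -0.40, adjusted p = 0.0002, and -0.32 with slide as a fixed block, adjusted p = 0.0445), the opposite direction to Pdk4. The other 4 did not pass between CCPB and DMSO, with limma adjusted p values of 0.745 for Meiob, 0.0903 for Qsox1, 0.565 for Cspp1 and 0.925 for Med22.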
